A study of Mus musculus with 8 samples.

Results

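The 10 genes of the NF-kB pathway described here were followed across the 4 groups of the study: the subunit genes Nfkb1, Nfkb2, Rela and Relb, the feedback genes Nfkbia, Tnfaip3 and Birc3, the adhesion genes Icam1 and Vcam1, and the cytokine gene Il6. They were chosen by name with earlier results of these data known, so counts of members below describe and do not support a direction. All 10 of 10 were found among the 24411 gene symbols of the deposited tables. All were also among the 12517 genes with enough counts to be tested. A223 is a mouse line described as a squamous cell carcinoma, used here as parental cells or with a knockdown of PRDX6 (KD), a peroxiredoxin that reduces peroxides. Polyadenylated RNA was sequenced from parental cells with DMSO at 0 h, parental cells after 18 h of 100 nM largazole, KD cells with DMSO at 0 h and KD cells after 18 h of 100 nM largazole, with 2 libraries in each group. Below, before the drug means DMSO at 0 h and after the drug 18 h of largazole. Largazole is an inhibitor of class I histone deacetylases. Drug and time changed together, since no DMSO library at 18 h was analysed here. KD cells were set against cells labelled parental, with no control construct analysed here, and the labels give neither the knockdown construct nor the number of clones.

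NF-kB proteins are dimers of Rel-family subunits. RelA with the p50 product of Nfkb1 is held in the cytoplasm by inhibitors such as IkBa, the product of Nfkbia, and is released when receptor signalling through the IKK kinases causes IkBa to be degraded, while RelB pairs with the p52 product of Nfkb2 in the slower, noncanonical branch. Nfkbia, Tnfaip3 and Birc3 are themselves NF-kB target genes whose products feed back on the pathway, and Icam1, Vcam1 and Il6 are classic target genes in epithelial, stromal and endothelial cells exposed to inflammatory cytokines.

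Library totals ranged from 13020492 to 15613216 estimated counts. Levels are given as CPM, counts scaled to a common library size by the TMM method, changes as log2 fold changes with their standard error (SE), and a gene is said to rise or fall only where edgeR's quasi-likelihood test gave an adjusted p under 0.05. The targeted gene Prdx6 had 3533 to 4189 counts in the 4 parental libraries and 962 to 1315 in the 4 KD libraries, which checks the labels. The ribosomal RNA precursor Rn45s ranged from 742 to 23915 CPM and was highest in replicate 1 and lowest in replicate 2 of KD largazole. Of 8 epithelial markers, Krt8 stood at 1006 to 2267 CPM and Krt18 at 94.8 to 183 CPM. Krt5 had at most 4 counts in any library, Cdh1 11, Trp63 12, Krt14 47, Epcam 51 and Sfn 56. The fibroblast marker Col1a1 stood at 1178 to 1925 CPM in every group. The labels do not say whether replicates were separate cultures, so p-values describe the spread between these libraries and that spread may be technical.

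The stretches of DNA just upstream of Icam1, Il6 and Nfkbia are shown because these genes moved in 3 different ways below: Icam1 with the drug, Il6 with the knockdown and Nfkbia downward with the drug. Each line holds the 250 bases before the start site in RefSeq on GRCm38.p6, 5′ to 3′ on the strand of the gene, at chr9:21015690-21015939 (plus strand) for Icam1, chr5:30012864-30013113 (plus strand) for Il6 and chr12:55492648-55492897 (minus strand) for Nfkbia. Capitals mark matches to 3 motifs searched on both strands: the kB decamer consensus GGGRNNYYCC, GGAAATTCC, which can overlap it, and the AP-1 motif TGANTCA. In these R is A or G, Y is C or T and N is any base.
Icam1: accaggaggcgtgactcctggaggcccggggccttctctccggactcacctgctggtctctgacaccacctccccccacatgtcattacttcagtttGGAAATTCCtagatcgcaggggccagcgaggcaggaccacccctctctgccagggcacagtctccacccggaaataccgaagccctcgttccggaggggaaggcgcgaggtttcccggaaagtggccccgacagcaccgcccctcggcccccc
Il6: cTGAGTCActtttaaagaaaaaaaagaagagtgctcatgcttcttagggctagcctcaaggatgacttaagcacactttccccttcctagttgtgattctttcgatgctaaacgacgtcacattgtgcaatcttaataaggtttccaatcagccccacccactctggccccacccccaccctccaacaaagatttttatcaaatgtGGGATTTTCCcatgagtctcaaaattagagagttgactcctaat
Nfkbia: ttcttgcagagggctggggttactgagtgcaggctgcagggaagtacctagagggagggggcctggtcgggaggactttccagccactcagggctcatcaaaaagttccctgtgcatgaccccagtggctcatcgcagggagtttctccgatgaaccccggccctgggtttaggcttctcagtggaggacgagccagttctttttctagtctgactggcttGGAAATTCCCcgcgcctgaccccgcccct

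Icam1 held GGAAATTCC at -153 to -145 from the start, a motif found in 0.286% of 32851 RefSeq windows of that length. Il6 held GGGATTTTCC at -44 to -35, a match to the kB decamer consensus (7.25% of windows), and the AP-1 motif at -249 to -243 (6.75% of windows). Nfkbia held GGAAATTCCC at -29 to -20, where the kB decamer consensus and GGAAATTCC overlap. Upstream of the first listed start of Tnfaip3 the matches included GGAATTTCC at -24 to -16 and GGAAATCCCC at -12 to -3. Upstream of the first listed start of Nfkb2 they included GGGAATTCCC at -39 to -30 and GGGGCTTTCC at -11 to -2. All 250 bases of this Nfkb2 window and 110 of the Tnfaip3 window lay in annotated untranslated regions. No match to the 3 motifs lay in the windows of Rela and Birc3. Nfkb1, Relb and Vcam1 had no entry in the table. These matches describe the letters of the windows and not binding, and a window without a match says nothing of the factor.

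Largazole was first compared with DMSO in parental cells, which asks how the pathway genes stand after the drug. The 4 subunit genes fell, Relb and Nfkb2 the furthest, together with Nfkbia, Birc3 and Vcam1, while Icam1 rose 9.02-fold in counts from a very low level. In all, 7 of 10 members fell and 1 rose, where 22.6% of the 12517 tested genes fell and 26.8% rose (49.3% in either direction), and the members' median log2 fold change was -0.42 against 0.03 over all tested genes. Tnfaip3 and Il6 did not pass. In KD cells 6 of 10 fell, the same genes except Vcam1, and Icam1 rose again (background 23.1% lower, 24.6% higher and 47.7% in either direction, members' median -0.44 against 0.01). In both genotypes the libraries of all 10 members were separate between the treatments, 7 lower and 3 higher with the drug, where 38.9% of tested genes were separate and lower and 42.2% separate and higher in parental cells and 34% and 35.6% in KD cells. The filter on low counts admitted Icam1 only through the largazole libraries and Il6 only through the KD groups, so their entry into the test favoured a difference. In bulk RNA, fewer cells expressing a gene and less RNA per cell cannot be told apart. The number of falling members in parental cells was 4 when parental DMSO replicate 1 was left out, 3 when replicate 2 was, 4 when either parental largazole library was, and 4 with upper-quartile scaling, and in KD cells it was 3 without KD DMSO replicate 1.

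**Figure D1:**
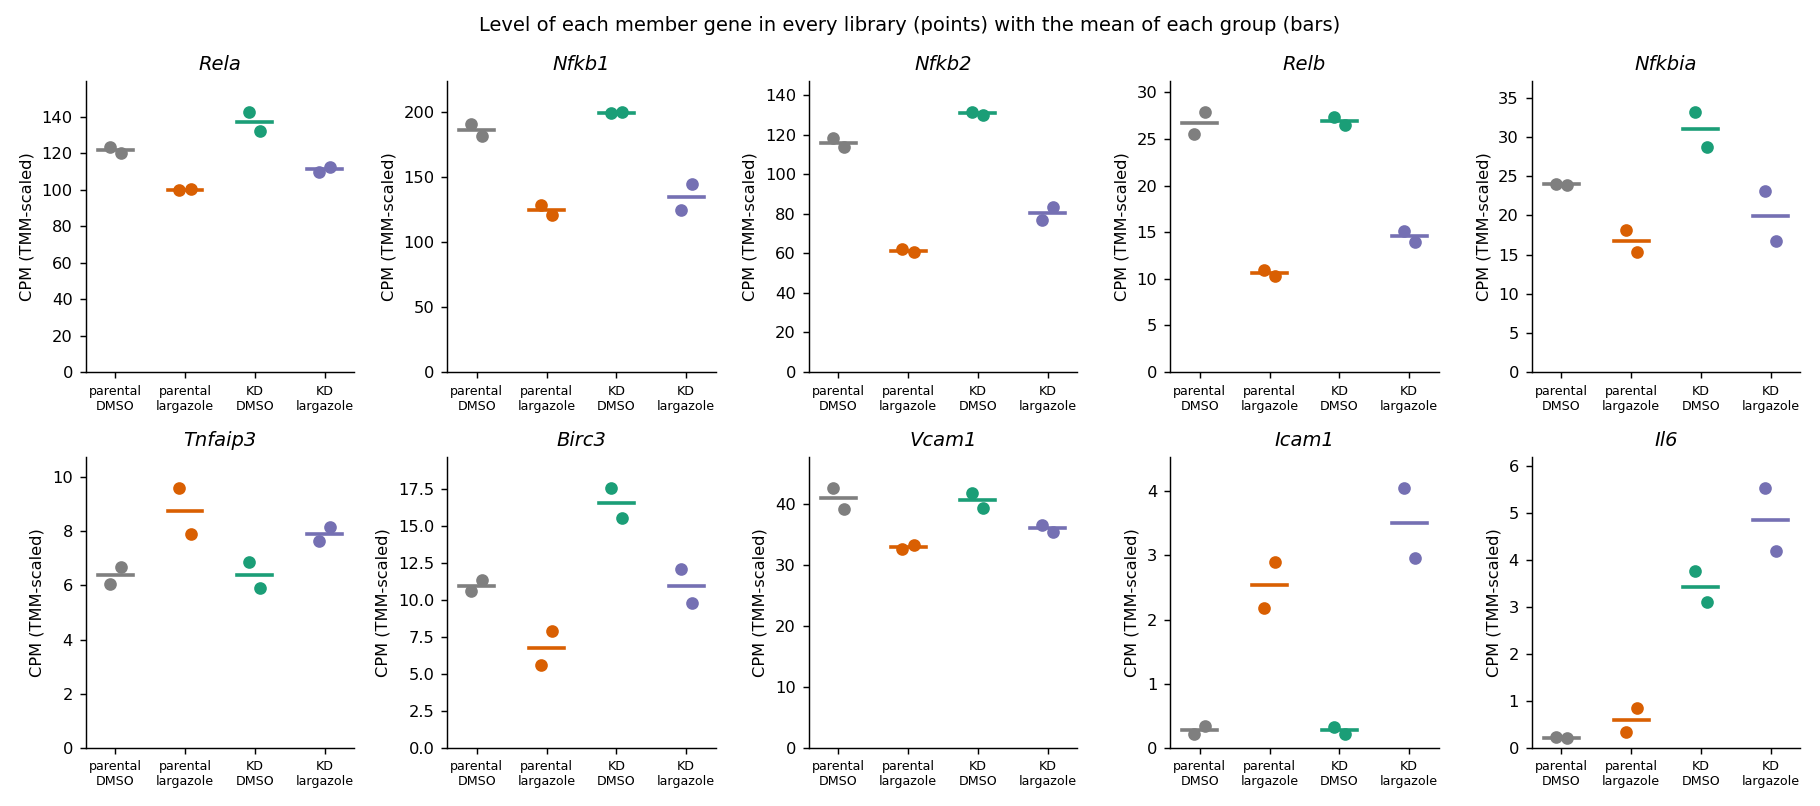
Level of the 10 genes in each of the 8 libraries, in TMM-scaled CPM on linear axes from 0, with points for single libraries and horizontal bars for the mean of the 2 libraries of a group. The 4 subunit genes, Nfkbia and Birc3 are lower in both largazole groups than in the DMSO group of the same genotype, Icam1 rises from under 0.34 CPM to between 2.18 and 4.05 CPM, and Il6 is highest in the 4 KD libraries.

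Relb (chromosome 7, 19606217 to 19629438, minus strand, GRCm38), the subunit of the noncanonical branch, stood at 25.5 and 27.9 CPM before and 10.97 and 10.35 after the drug in parental cells, and at 27.3 and 26.4 before and 15.1 and 13.96 after it in KD cells. All 4 largazole libraries lay below all 4 DMSO libraries, and the KD largazole libraries lay above the parental largazole ones. Relb fell by 1.32 ± 0.13 on the log2 scale in parental cells (adjusted p = 2.19e-05) and by 0.89 ± 0.12 in KD cells (adjusted p = 0.000246). The difference between these responses was 0.44 ± 0.18 (adjusted p = 0.504) and did not pass.

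Nfkb2 (chromosome 19, 46304320 to 46312385, plus strand), which encodes the p100 precursor of p52, stood at 118 and 114 CPM before and 62.3 and 60.6 after the drug in parental cells, and at 131 and 130.2 before and 77.0 and 83.5 after it in KD cells. The groups did not overlap. Nfkb2 fell by 0.92 ± 0.08 in parental cells (adjusted p = 1.39e-05) and by 0.70 ± 0.08 in KD cells (adjusted p = 6.97e-05). Exons of Nfkb2 share 531 bases with AC114539.1, which has no row in the tables, and 299 bases with Psd, both on the opposite strand. Psd had 3 to 9 counts in DMSO and 55 to 90 in largazole libraries, against 915 or more of Nfkb2. Without a known strand setting, reads of Nfkb2 and these genes cannot be told apart.

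Nfkb1 (chromosome 3, 135584655 to 135691547, minus strand), which encodes the p105 precursor of p50, stood at 190.5 and 181 CPM before and 128 and 121 after the drug in parental cells, and at 199 and 199.6 before and 124 and 144 after it in KD cells. It was lower in each largazole library than in any DMSO library, and the 2 largazole groups overlapped. It fell by 0.58 ± 0.09 in parental (adjusted p = 0.00043) and by 0.57 ± 0.09 in KD cells (adjusted p = 0.000476).

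Rela (chromosome 19, 5637483 to 5648130, plus strand), the main transactivating subunit, changed least among the 4, from 123 and 120.2 CPM in parental DMSO to 99.9 and 100.1 in parental largazole and from 142 and 132 in KD DMSO to 109.9 and 112 in KD largazole. It fell by 0.28 ± 0.08 (adjusted p = 0.0111) and 0.30 ± 0.08 (adjusted p = 0.00814). The call in parental cells was lost without any 1 of the 4 parental libraries (adjusted p = 0.0551 to 0.0815) and, barely, with upper-quartile scaling (adjusted p = 0.0504). In KD cells it was lost without KD DMSO replicate 1 (adjusted p = 0.079) and in a fit of only the libraries compared (adjusted p = 0.0671). Nfkb1, Nfkb2 and Relb passed in both genotypes in all 19 alternatives.

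Ratios within a library do not depend on how libraries are scaled. For each 100 counts of Rela there were 20.7 and 23.2 counts of Relb before and 10.97 and 10.34 after the drug in parental cells, and 19.2 and 20.0 before and 13.8 and 12.4 after it in KD cells. Relb therefore stood lower relative to Rela in each largazole library than in any DMSO library. For each 100 counts of Nfkb1 there were 62.0 and 62.8 counts of Nfkb2 before and 48.6 and 50.05 after the drug in parental cells, and 66.1 and 65.2 before and 62.0 and 57.9 after it in KD cells. Here the parental largazole libraries were the lowest. KD largazole replicate 2 lay between them and the 4 DMSO libraries, and KD largazole replicate 1 was level with parental DMSO replicate 1.

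Among the feedback genes, Nfkbia (chromosome 12, 55489410 to 55492647, minus strand) stood at 24.0 CPM in both parental libraries before the drug and at 18.1 and 15.4 after it, and in KD cells at 33.2 and 28.8 before and 23.1 and 16.8 after it. It was highest in the KD DMSO libraries, and the largazole groups overlapped each other. Nfkbia fell by 0.52 ± 0.17 in parental (adjusted p = 0.0248) and by 0.64 ± 0.16 in KD cells (adjusted p = 0.00854). The call in parental cells was lost without parental DMSO replicate 1 or 2 (adjusted p = 0.0836 and 0.085), parental largazole replicate 2 (adjusted p = 0.138) and with upper-quartile scaling (adjusted p = 0.0556), and that in KD cells without KD DMSO replicate 1 (adjusted p = 0.0669).

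Birc3 (chromosome 9, 7848699 to 7873186, minus strand) encodes cIAP2, a ubiquitin ligase of the TNF receptor complex. It stood at 10.6 and 11.3 CPM before and 5.58 and 7.91 after the drug in parental cells, and at 17.6 and 15.5 before and 12.1 and 9.78 after it in KD cells. KD libraries lay above the parental libraries of the same treatment. Birc3 fell by 0.70 ± 0.20 in parental (adjusted p = 0.0152) and by 0.60 ± 0.19 in KD cells (adjusted p = 0.0224). The call in parental cells was lost without parental DMSO replicate 2 (adjusted p = 0.0793) or parental largazole replicate 1 (adjusted p = 0.125), and that in KD cells without KD DMSO replicate 1 (adjusted p = 0.124) or KD largazole replicate 2 (adjusted p = 0.0614).

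Tnfaip3 (chromosome 10, 19000910 to 19015657, minus strand) encodes A20, a ubiquitin-editing enzyme that shuts the pathway off. It stood at 6.06 and 6.68 CPM before and 9.60 and 7.91 after the drug in parental cells, and at 6.85 and 5.89 before and 7.64 and 8.16 after it in KD cells. Its libraries were higher with largazole than with DMSO in both genotypes, opposite in direction to Nfkbia and Birc3, but neither difference passed (0.46 ± 0.18, adjusted p = 0.0609, and 0.31 ± 0.19, adjusted p = 0.196). That in parental cells passed with upper-quartile scaling (adjusted p = 0.0343), with library totals only (adjusted p = 0.0365), with only the libraries compared (adjusted p = 0.0375) and without KD largazole replicate 1 or 2 (adjusted p = 0.041 and 0.0446).

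**Figure D2:**
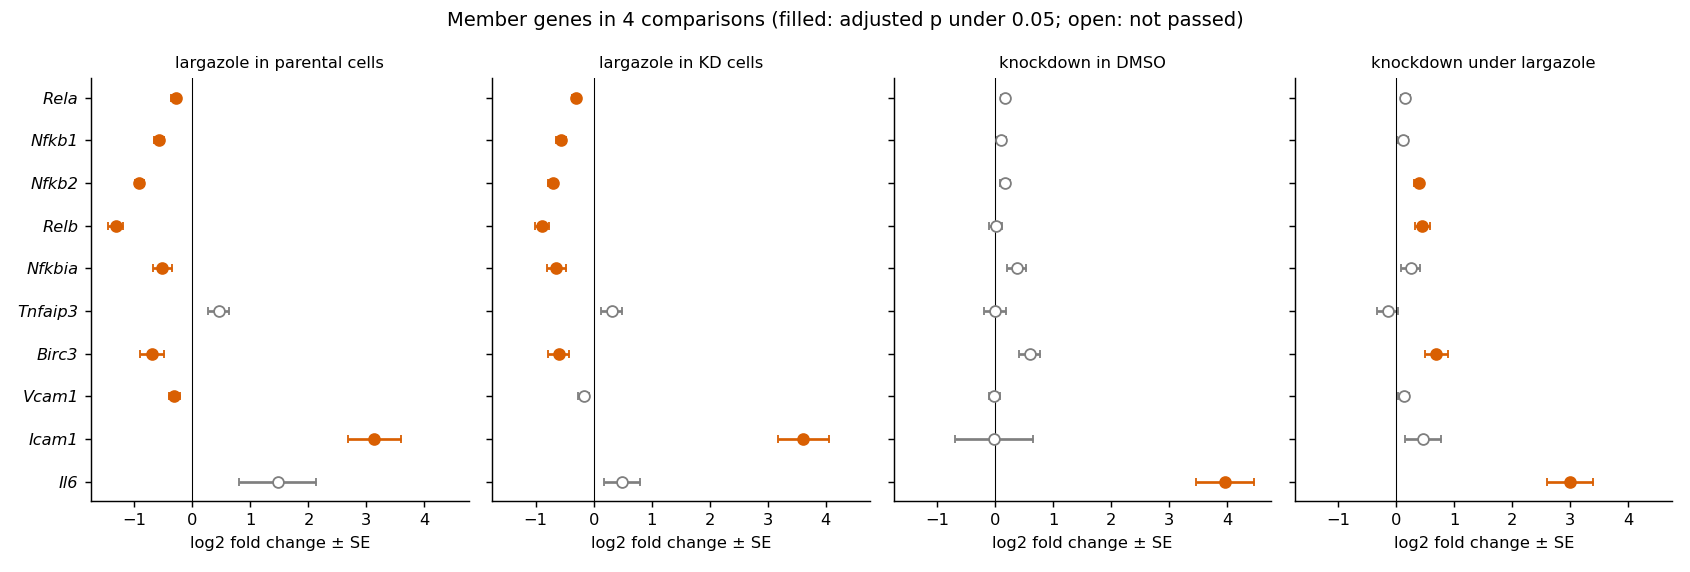
Log2 fold change of each of the 10 genes with its SE in the 4 comparisons between groups, with filled points for an adjusted p under 0.05 and open points for genes that did not pass. Under largazole the subunit and feedback genes other than Tnfaip3 lie left of 0 and Icam1 lies at 3.13 and 3.61, while under the knockdown Il6 lies at 3.96 and 2.99.

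The adhesion genes moved in opposite directions. Icam1 (chromosome 9, 21015985 to 21028817, plus strand), the ligand of leukocyte beta2 integrins, had 3 and 5 counts before and 32 and 44 after the drug in parental cells, and 5 and 3 before and 52 and 44 after it in KD cells. All 4 largazole libraries thus lay well above all 4 DMSO libraries. The summed counts gave a ratio of 9.02 in parental cells (95% interval 4.35 to 21.6, exact binomial) and 12.5 in KD cells (6.08 to 29.7), intervals that cover counting error only. Icam1 rose by 3.13 ± 0.46 (adjusted p = 0.000345) and 3.61 ± 0.44 (adjusted p = 0.000115), and both calls held in all 19 alternatives. Exons of Icam1 share 511 bases with Gm47079, an antisense gene with no row in the tables. Since the strand setting of the counting is not given in the sources used here, reads of the pair cannot be told apart.

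Vcam1 (chromosome 3, 116109949 to 116129688, minus strand), the ligand of integrin alpha4beta1, stood at 42.7 and 39.3 CPM before and 32.7 and 33.2 after the drug in parental cells, and at 41.8 and 39.4 before and 36.6 and 35.4 after it in KD cells. It was lower in every largazole library than in any DMSO library, by a small margin. Vcam1 fell by 0.31 ± 0.10 in parental cells (adjusted p = 0.0228), and the difference of -0.17 ± 0.10 in KD cells did not pass (adjusted p = 0.168). The call in parental cells was lost without any 1 parental library (adjusted p = 0.0521 to 0.15), with upper-quartile scaling (adjusted p = 0.0772), with library totals only (adjusted p = 0.0603) and in DESeq2 (adjusted p = 0.0514). Exons of Vcam1 share 61 bases with the antisense gene Gm43109, which has no row in the tables.

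Endothelial cells and leukocytes also express these adhesion genes. The 6 endothelial markers summed to 6.75 to 7.02 CPM before and 6.72 to 9.19 after the drug in parental cells, and to 5.38 to 6.78 before and 6.31 to 7.55 after it in KD cells, and Kdr had 0 counts in every library. The 8 leukocyte markers summed to 7.08 to 7.25 CPM in parental DMSO and 6.93 to 7.70 in KD DMSO, and to 64.1 to 65.4 CPM in parental and 43.9 to 50.5 CPM in KD largazole. Most of that was Cd68, a lysosomal protein, at up to 62.1 CPM. Adgre1 and Cd3e had 0 counts in every library, and the pan-leukocyte gene Ptprc had at most 13. Markers of epithelium and fibroblasts changed with the drug too. Epcam, Krt14 and Trp63 entered the test only through the largazole libraries, so their entry favoured a difference. Epcam had 0 counts in the 4 DMSO libraries and 36 to 51 in the 4 largazole libraries, Krt14 at most 3 and 19 to 47, and Trp63 0 and 6 to 12, and they rose in both genotypes with Krt18, whereas Krt8 fell (-0.90 ± 0.10 in parental and -0.79 ± 0.10 in KD cells). Of the 7 fibroblast markers, Col3a1 (-0.98 ± 0.09 and -0.36 ± 0.08), Pdgfra (-0.73 ± 0.11 and -0.39 ± 0.11) and Pdgfrb (-0.50 ± 0.10 and -0.76 ± 0.09) fell and Thy1 (1.90 ± 0.11 and 0.82 ± 0.10) rose in both genotypes, and Col1a1 rose in parental cells (0.39 ± 0.08). The part of these markers in the members' drug responses was not tested.

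Il6 (chromosome 5, 30013114 to 30019981, plus strand), the cytokine that signals through gp130 and STAT3, had 3 counts in each parental library before the drug and 5 and 13 after it, and in KD cells 57 and 42 before and 71 and 62 after it. The 4 KD libraries lay above the 4 parental ones. The response to largazole did not pass in parental (1.47 ± 0.66, adjusted p = 0.0899) or KD cells (0.50 ± 0.31, adjusted p = 0.214), with count ratios of 2.85 (95% interval 1.08 to 8.76) and 1.40 (1.07 to 1.83). In parental cells it passed without parental largazole replicate 1 (adjusted p = 0.0409).

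Before the drug, KD cells were set against parental cells to ask what goes with less Prdx6. Il6 rose, from 6 counts in the 2 parental libraries to 99 in the 2 KD libraries, and it was the only member that passed. The ratio was 16.3 (95% interval 7.21 to 45.4) and the fitted change 3.96 ± 0.50 (adjusted p = 0.00076), and the call held in all 19 alternatives. With 1 of 10 members higher against 7.11% of tested genes, the share of members is near the background (11.1% in either direction). The KD libraries of 6 members lay above the parental ones without overlap, where 30.5% of tested genes were separate and higher and 30.3% separate and lower. No member fell in edgeR's test, with 0 at an unadjusted p under 0.05 and 0 in DESeq2 or limma-voom, where 4.01% of tested genes fell.

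The other members in DMSO stood close to their parental levels or slightly above them. Birc3 was higher by 0.60 ± 0.19 without passing (adjusted p = 0.0699), and it passed with no filter on low counts (adjusted p = 0.0354), with only the libraries compared (adjusted p = 0.00391) and without KD largazole replicate 1 or 2 (adjusted p = 0.0117 and 0.0134). Nfkbia (0.37 ± 0.16, adjusted p = 0.182), Nfkb2 (0.17 ± 0.08, adjusted p = 0.207), Rela (0.17 ± 0.08, adjusted p = 0.193) and Nfkb1 (0.10 ± 0.09, adjusted p = 0.534) had KD libraries above the parental ones without passing. Nfkbia passed without KD largazole replicate 1 or 2 (adjusted p = 0.026 and 0.0293), and Nfkbia, Nfkb2 and Rela passed with only the libraries compared (adjusted p = 0.0128, 0.0401 and 0.0458). Relb (0.01 ± 0.12), Tnfaip3 (0.00 ± 0.19), Vcam1 (-0.01 ± 0.10) and Icam1 (-0.02 ± 0.68) had overlapping libraries. For Icam1, at 8 counts in each genotype, the interval of the ratio ran from 0.322 to 3.01, so a difference of that size was not detectable at this depth.

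Under largazole the same comparison gave 4 members higher in KD cells (Il6, Birc3, Nfkb2 and Relb) and none lower, against 8.12% of tested genes higher and 9.67% lower (17.8% in either direction), and 7 members with KD libraries separate and higher, against 25.6% of tested genes and 27.8% separate and lower. For the lower direction edgeR gave 0 members at an unadjusted p under 0.05, and DESeq2 and limma-voom called 0 lower and 3 higher each. Il6 rose by 2.99 ± 0.40 (adjusted p = 0.00092), a count ratio of 7.98 (95% interval 4.86 to 13.9), in all 19 alternatives. Birc3 was higher by 0.69 ± 0.20 (adjusted p = 0.0393), Nfkb2 by 0.39 ± 0.08 (adjusted p = 0.0101) and Relb by 0.45 ± 0.13 (adjusted p = 0.0397). Icam1 did not pass (0.46 ± 0.31, adjusted p = 0.353), with a count ratio of 1.36 (0.999 to 1.87).

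Of these 4 calls, that of Il6 alone held without each single library. Nfkb2 missed the threshold without parental largazole replicate 1 or 2 (adjusted p = 0.0713 and 0.0934) and with only the libraries compared (adjusted p = 0.0845). Relb missed it without any 1 library other than KD largazole replicate 2 (adjusted p = 0.0593 to 0.194), with only the libraries compared (adjusted p = 0.149), in DESeq2 (adjusted p = 0.0974) and in limma-voom (adjusted p = 0.0519). Birc3 missed it without any 1 library other than parental largazole replicate 2 and KD largazole replicate 2 (adjusted p = 0.0581 to 0.255) and with only the libraries compared (adjusted p = 0.116). The number of members higher lay between 1 and 5 when 1 library was left out. Nfkb1 passed only without KD largazole replicate 1 (adjusted p = 0.0395) and Nfkbia only without KD largazole replicate 2 (adjusted p = 0.0237).

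The fibroblast markers moved with the genotype in which Il6 was high. All 7 were higher in KD than in parental DMSO and 5 of 7 under largazole (background 7.11% and 8.12% higher). Their sum, carried mostly by Col1a1, Col1a2 and Col3a1, was 3583 to 3596 CPM before and 3589 to 3647 after the drug in parental cells. In KD cells the sum was 5155 to 5234 CPM before and 4499 to 5151 after the drug. None of the 7 was at 0 in any group. Their part in the Il6 result was not tested.

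Whether the drug response differed between genotypes was tested directly. None of the 10 members passed in edgeR's interaction test, where 29 of 12517 genes did (0.232%, with 0.0399% higher and 0.192% lower), and DESeq2 and limma-voom also called 0. Relb was the 1 member with an unadjusted p under 0.05, where 1089 of 12517 tested genes had one. The interaction was estimated with wide errors for the genes of few counts, at -0.97 ± 0.73 for Il6 (adjusted p = 0.815) and 0.48 ± 0.76 for Icam1 (adjusted p = 0.949). For the subunits other than Relb, whose difference is given above, the differences were smaller, with 0.21 ± 0.11 for Nfkb2, -0.02 ± 0.11 for Rela and 0.01 ± 0.12 for Nfkb1.

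Per kilobase of exon, which allows levels to be set between genes, Rela was the most abundant member transcript in every group and Nfkb2 the next. In parental DMSO Rela stood at 39.7 ± 0.765 CPM per kilobase (SD, n = 2 libraries), Nfkb2 at 25.3 ± 0.659, Nfkb1 at 15.4 ± 0.539, Nfkbia at 14.9 ± 0.0351, Relb at 6.87 ± 0.429, Vcam1 at 4.62 ± 0.271, Birc3 at 2.19 ± 0.107, Tnfaip3 at 0.882 ± 0.0603, Il6 at 0.0874 ± 0.00566 and Icam1 at 0.0641 ± 0.0187. Nfkb1 and Nfkbia, and Il6 and Icam1, differed there by less than their summed SDs. With largazole Relb dropped below Vcam1 in both genotypes, to 2.74 ± 0.112 against 3.72 ± 0.0420 in parental and 3.74 ± 0.212 against 4.06 ± 0.0981 in KD cells. In KD cells Il6 stood above Tnfaip3, at 1.41 ± 0.192 against 0.882 ± 0.0935 in DMSO and 2.00 ± 0.394 against 1.09 ± 0.0510 under largazole. Exon length was that of all annotated exons of a gene together, which understates genes whose main transcript is shorter. The order of the subunits rests on this length, with 12061 bases for Nfkb1 against 3072 for Rela and 4584 for Nfkb2. Without scaling for length, Nfkb1 had the highest CPM of the members in every group, 186 against 122 for Rela in parental DMSO.

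**Figure D3:**
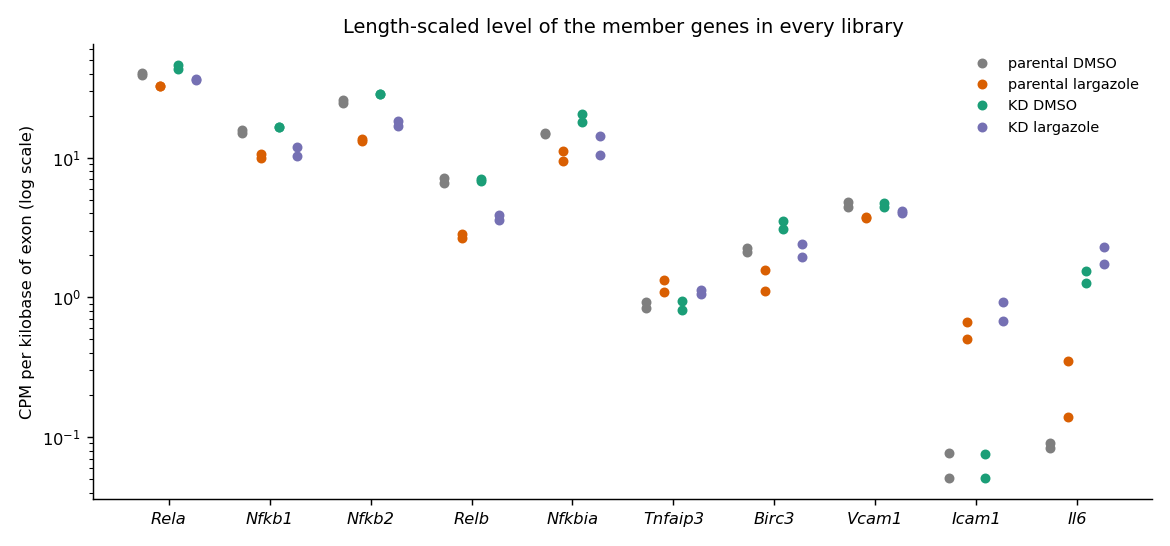
Length-scaled level of the 10 genes in each of the 8 libraries, in CPM per kilobase of exon on a log axis, with 1 point per library coloured by group. Rela lies at the top in all groups, and Il6 and Icam1 hold the lowest points, at 0.0874 and 0.0641 on average in parental DMSO.

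The rest of the pathway was described with 7 lists of 96 genes in all, of which 81 were tested. The lists were drawn up with earlier results of these data known, so their counts describe and do not support a direction. Among the other subunit and IkB genes, the nuclear IkB proteins Bcl3 and Nfkbiz rose in KD cells both in DMSO (0.96 ± 0.17 and 0.79 ± 0.10) and under largazole (1.11 ± 0.16 and 0.46 ± 0.10). In each condition they were the 2 of 5 tested genes that rose, and none fell. The background was 7.11% higher and 4.01% lower in DMSO, and 8.12% and 9.67% under largazole. Nfkbie, an IkB protein close to IkBa, fell with largazole in parental (-0.49 ± 0.16) and KD cells (-0.48 ± 0.16), where Bcl3 rose in KD (0.56 ± 0.16) and Nfkbiz in parental cells (0.36 ± 0.10). Nfkbie missed the threshold with upper-quartile scaling, library totals only or DESeq2 in each genotype (adjusted p = 0.0502 to 0.0936) and without several single libraries (up to 0.185). Bcl3 missed it in DMSO without parental DMSO replicate 1 or KD DMSO replicate 1 (adjusted p = 0.0761 and 0.064) and with the drug without KD DMSO replicate 2 (adjusted p = 0.121). Nfkbiz missed it under largazole without parental largazole replicate 1 (adjusted p = 0.116), and with the drug without parental DMSO replicate 1 or parental largazole replicate 2 (adjusted p = 0.158 and 0.139). Rel did not pass in any comparison, and Nfkbid had 0 counts in every library, which allows up to 3 counts per library.

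Of the receptor and ligand genes 8 were tested, all of them receptors. With the knockdown in DMSO 4 of 8 rose and none fell (median 0.61 against 0.00 over all genes, background 7.11% higher), and under largazole 5 of 8 rose and none fell (median 0.53, background 8.12% higher). Tlr3, a sensor of double-stranded RNA, rose by 1.10 ± 0.20 and 1.13 ± 0.20, the TNF receptor gene Tnfrsf1b by 0.83 ± 0.15 and 0.73 ± 0.15, and the interleukin 1 receptor gene Il1r1 by 0.73 ± 0.19 and 0.85 ± 0.19. Tnfrsf1a, the main TNF receptor, rose by 0.33 ± 0.09 in DMSO, and Tlr4 by 0.59 ± 0.16 under largazole. The call of Tnfrsf1a was lost with RLE scaling (adjusted p = 0.0506) and without any 1 library outside KD largazole. That of Tlr4 was lost with only the libraries compared (adjusted p = 0.1) and without any 1 of several libraries. The count in DMSO was 0 when either parental DMSO library or KD DMSO replicate 1 was left out, 2 without KD DMSO replicate 2 and 8 without either KD largazole library, and under largazole it was 2 when parental largazole replicate 1 was left out and 3 when replicate 2 was. The ligands were scarce and not tested, with at most 15 counts of Tnf and 14 of Il1a in any library and 0 of Il1b in all 8. With largazole 2 of 8 rose and 1 fell in parental cells (background 26.8% and 22.6%), Tlr2 (0.72 ± 0.17), Tnfrsf1b (0.42 ± 0.15) and Ltbr, the lymphotoxin receptor (-0.32 ± 0.11), and Tlr4 rose in KD cells (0.46 ± 0.16). These 4 calls were lost without single libraries (adjusted p up to 0.0627 for Tlr2, 0.253 for Tnfrsf1b, 0.208 for Ltbr and 0.135 for Tlr4), and that of Ltbr also with upper-quartile scaling (adjusted p = 0.123).

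Of the adaptors and kinases, 6 of 19 passed with the drug in each genotype (background 49.3% in parental and 47.7% in KD cells in either direction). In parental cells 5 of 19 fell and 1 rose (median -0.12, background 22.6% lower and 26.8% higher). In KD cells 4 fell and 2 rose (median -0.10, background 23.1% lower and 24.6% higher). Traf3, which restrains the noncanonical branch, fell by 0.77 ± 0.12 in each genotype, Irak1, a kinase of the Toll and interleukin 1 receptors, by 0.76 ± 0.08 and 0.84 ± 0.08, and Tradd, the adaptor of the TNF receptor, rose by 0.70 ± 0.23 and 0.73 ± 0.23. Traf5 fell in parental cells (-0.76 ± 0.14) and Traf2 in KD cells (-0.57 ± 0.14). With the knockdown Ikbke, an IKK-related kinase, rose in DMSO (0.72 ± 0.11), and Ikbke (0.62 ± 0.11) and Traf5 (0.52 ± 0.14) rose under largazole, that is 1 and 2 of 19 against 11.1% and 17.8% of all tested genes in either direction. The knockdown in DMSO had 2 higher and 4 lower with only the libraries compared and without either KD largazole library. The number that fell in parental cells was 3 when parental DMSO replicate 2 or parental largazole replicate 1 was left out. Tradd missed the threshold without any 1 parental library in parental cells (adjusted p = 0.0699 to 0.157) and without KD DMSO replicate 2 in KD cells (adjusted p = 0.162). Ikbke missed it without parental DMSO replicate 2 before and parental largazole replicate 1 after the drug (adjusted p = 0.0572 and 0.0636), and Traf5 under largazole without any parental or KD DMSO library (adjusted p = 0.0504 to 0.2).

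Few ubiquitin ligases, deubiquitinases and their partners passed. Of 12 genes 1 rose and 1 fell with largazole in each genotype (background 26.8% higher and 22.6% lower in parental cells, 24.6% and 23.1% in KD cells), Tnip1, the partner of A20 (0.31 ± 0.09 and 0.33 ± 0.09), and Itch, a ubiquitin ligase (-0.37 ± 0.13 and -0.44 ± 0.13). Cyld, a deubiquitinase that restrains NF-kB, fell with the knockdown by 0.66 ± 0.12 in DMSO and 0.64 ± 0.12 under largazole. Rnf31, a subunit of the linear ubiquitin ligase, rose under largazole (0.45 ± 0.14), and its call was lost in DESeq2 (adjusted p = 0.0602), with library totals only (adjusted p = 0.0618) and without 5 single libraries (adjusted p = 0.0681 to 0.284). The call of Cyld was lost in DMSO without parental DMSO replicate 2 or KD DMSO replicate 2 (adjusted p = 0.0915 and 0.0713), and under largazole without parental largazole replicate 2 (adjusted p = 0.0799). In parental cells the calls of Tnip1 and Itch were lost without any 1 parental library (adjusted p = 0.0749 to 0.197), and that of Itch with upper-quartile scaling or library totals only (adjusted p = 0.0908 and 0.119). In KD cells that of Itch was lost with library totals only (adjusted p = 0.0604) and without KD DMSO replicate 2 or KD largazole replicate 1 (adjusted p = 0.21 and 0.0553), and that of Tnip1 without KD DMSO replicate 1 or 2 (adjusted p = 0.0946 and 0.055). Both were lost in KD cells with only the libraries compared (adjusted p = 0.0702 and 0.07). With upper-quartile scaling 4 of 12 rose in each genotype.

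Of the other NF-kB target genes, 13 of 20 tested rose with the knockdown in DMSO and none fell (background 7.11% and 4.01%), with a median of 1.13 against 0.00 over all genes. Under largazole 10 rose and 2 fell (background 8.12% and 9.67%), with a median of 0.50. Csf3 and Lcn2, at 2 counts each in the 2 parental DMSO libraries, entered the test through the KD libraries in which they were high, so the count is no support for a direction. The neutrophil chemoattractant gene Cxcl5 had 21 counts in parental and 234 in KD DMSO, a ratio of 10.98 (95% interval 7.02 to 18.1), and 135 and 677 under largazole, a ratio of 5.41 (4.49 to 6.56). Saa3, an acute-phase gene, rose by 3.21 ± 0.30 in DMSO and 2.27 ± 0.26 under largazole. Lcn2, an iron-sequestering protein gene, had 2 and 28 counts in DMSO, a ratio of 13.8 (3.48 to 120), and 14 and 101 under largazole, a ratio of 7.79 (4.43 to 14.8). Ccl5, a chemokine gene, rose by 2.84 ± 0.49 under largazole. Csf3, the granulocyte colony-stimulating factor gene, had 2 and 45 counts in DMSO, a ratio of 22.2 (5.79 to 189), but 26 and 15 under largazole, a ratio of 0.623 (0.307 to 1.22). The fibroblast markers given above were higher in the same KD libraries, and their part in the counts of receptors and targets was not tested. The count in DMSO was 7 when either parental DMSO library and 8 when KD DMSO replicate 1 was left out. Csf3 missed the threshold without any 1 library of this comparison (adjusted p = 0.052 to 0.161) and Lcn2 without any of these but KD DMSO replicate 2 (adjusted p = 0.162 to 0.197).

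With largazole 10 of these 20 target genes rose and 2 fell in parental cells (median 0.47, background 26.8% higher and 22.6% lower). In KD cells 6 rose and 4 fell (median 0.20), shares near the background of 24.6% and 23.1%. Cxcl5 rose in both (2.60 ± 0.38 and 1.60 ± 0.23), Csf3 (3.47 ± 1.06), Saa3 (1.30 ± 0.34) and Csf1, the macrophage colony-stimulating factor gene (0.90 ± 0.07), rose in parental cells, and Lcn2 (1.93 ± 0.46) and Traf1 (1.04 ± 0.20) rose and Cxcl10 (-1.55 ± 0.36) fell in KD cells. The call of Saa3 was lost when either parental DMSO replicate 1 or parental largazole replicate 1 was left out (adjusted p = 0.0716 and 0.0698), that of Csf3 when parental DMSO replicate 2 or parental largazole replicate 2 was (adjusted p = 0.132 and 0.117), and that of Lcn2 when KD DMSO replicate 2 was (adjusted p = 0.0538). The number that rose was 6 without parental DMSO replicate 2 in parental cells and 10 without KD largazole replicate 2 in KD cells.

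**Figure D4:**
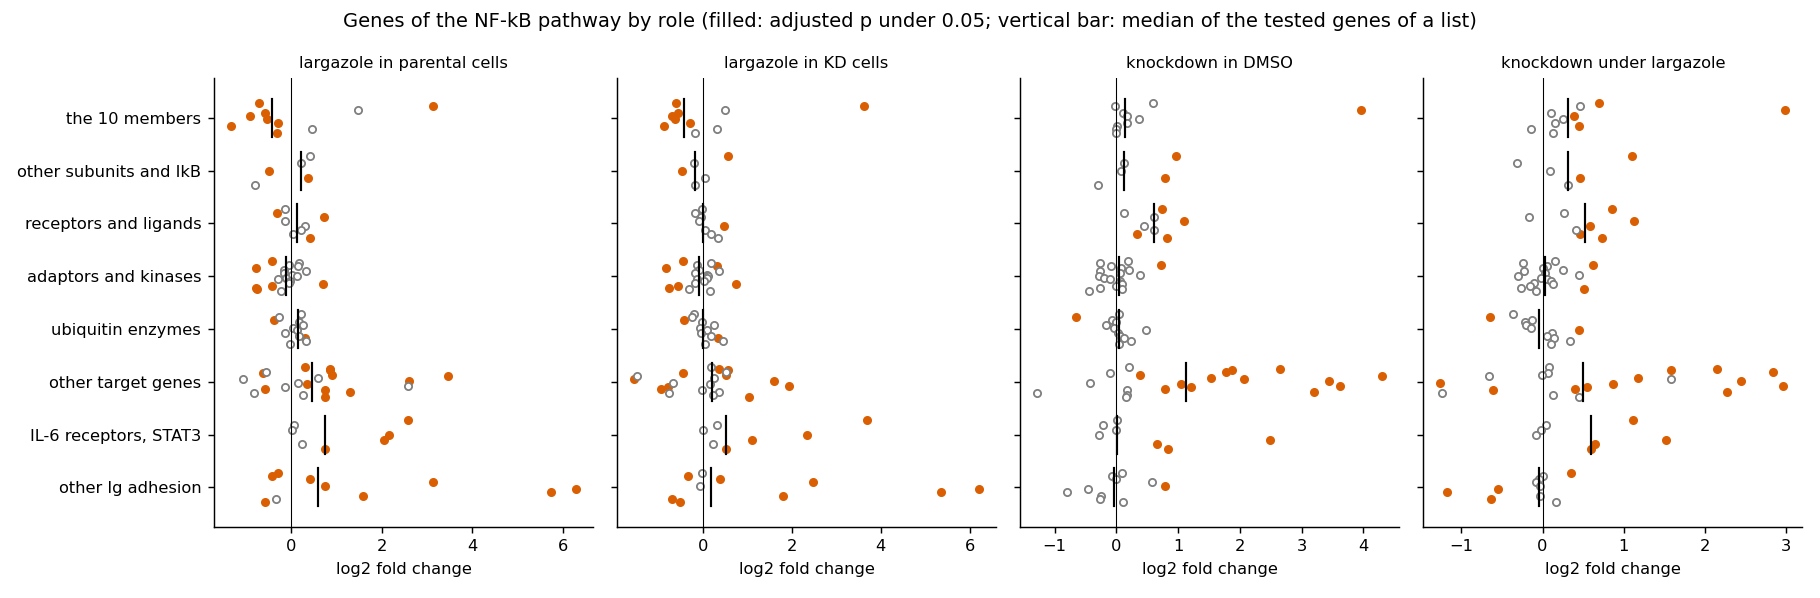
Log2 fold change of each tested gene of the pathway, grouped by role, in the 4 comparisons between groups, with filled points for an adjusted p under 0.05, open points for genes that did not pass and a vertical bar at the median of each list; the horizontal scale differs between panels. In the panels on largazole the members sit mostly left of 0 with medians of -0.42 and -0.44, and in the panel on the knockdown in DMSO the other target genes spread to the right with a median of 1.13.

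Among the 7 genes of IL-6 receptors, family cytokines and STAT3, Osmr and Stat3 rose in all 4 comparisons between groups. Osmr, the receptor of oncostatin M, stood at 8.65 and 8.91 CPM before and 35.5 and 37.4 after the drug in parental cells, and at 48.7 and 49.4 before and 91.9 and 118 after it in KD cells. The 4 groups did not overlap. Osmr rose by 2.05 ± 0.14 and 1.10 ± 0.12 with largazole in parental and KD cells and by 2.48 ± 0.14 and 1.52 ± 0.12 with the knockdown in DMSO and under largazole. Stat3, the transcription factor that IL-6 activates, rose in the same 4 comparisons by 0.76 ± 0.08, 0.52 ± 0.08, 0.84 ± 0.08 and 0.60 ± 0.08. Socs3, its feedback inhibitor, rose with the knockdown by 0.66 ± 0.10 and 0.65 ± 0.10. Il11, a cytokine that also signals through gp130, rose with largazole by 2.59 ± 0.22 and 3.69 ± 0.21 and with the knockdown under largazole by 1.11 ± 0.17. Lifr, the receptor of leukemia inhibitory factor, rose with largazole by 2.15 ± 0.38 and 2.34 ± 0.40. It had 18 and 15 counts in the 2 libraries of parental and KD DMSO, and 85 and 74 with largazole. Lifr thus entered the test through the largazole libraries, which favoured a difference. The receptor genes Il6st and Il6ra did not pass in any comparison. In all 3 of 7 rose with the knockdown in DMSO (background 7.11%) and 4 of 7 in each of the other 3 comparisons (background 8.12% with the knockdown under largazole, and 26.8% and 24.6% with the drug in parental and KD cells), and none fell.

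Icam1 was not alone among adhesion genes of its family in rising with largazole. Of 10 tested genes 6 rose and 3 fell in parental cells (background 26.8% and 22.6%) and 5 rose and 3 fell in KD cells (background 24.6% and 23.1%). L1cam (6.29 ± 0.29 and 6.21 ± 0.31), Mcam (5.73 ± 0.27 and 5.35 ± 0.31), Icam5 (3.14 ± 0.28 and 2.48 ± 0.27) and Ncam1 (1.59 ± 0.10 and 1.80 ± 0.10) rose in both genotypes. L1cam and Mcam had at most 10 counts and Icam5 at most 19 in any DMSO library, so that L1cam and Mcam entered the test only through the largazole libraries. Under the knockdown Jam2 rose in DMSO (0.78 ± 0.12), and under largazole Mcam (-1.17 ± 0.18), Pvrl1 (-0.63 ± 0.13) and L1cam (-0.55 ± 0.17) fell and Alcam (0.35 ± 0.10) rose. Of the last 4, Mcam alone passed in all 19 alternatives. L1cam missed the threshold without either parental largazole or either KD DMSO library. It also missed it with upper-quartile scaling (adjusted p = 0.0559), the stricter filter (adjusted p = 0.0508), DESeq2 (adjusted p = 0.0556) and only the libraries compared (adjusted p = 0.0647). Alcam missed it without any 1 library but the 2 of KD largazole, with library totals only (adjusted p = 0.0765) and with only the libraries compared (adjusted p = 0.13). Pvrl1 missed it without parental largazole replicate 1 and with only the libraries compared (adjusted p = 0.0722). Icam2, Icam4 and Jam3 had at most 2 counts in any library and were not tested. Over all 7 lists, none of the 81 genes passed edgeR's interaction test, where 12 had an unadjusted p under 0.05, DESeq2 called 3 and limma-voom called 0. Of all 12517 tested genes 29 passed and 1089 had an unadjusted p under 0.05, and DESeq2 called 83. With no filter on low counts 2 of the 20 other target genes and 1 gene each of the IL-6 and adhesion lists were lower, against 89 over all genes. The counts also moved when either KD largazole library was left out.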

How the data were processed

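RNA of the 8 libraries was purified on columns, selected for poly(A) and made into strand-marking libraries, per the labels' protocols. Reads were processed on mm10, per the submitters' processing notes. No aligner, counting tool, strand setting or annotation is given in the sources used here. The values per gene symbol were taken as the authors' estimated counts, as deposited and not normalized; no header names the unit, which was read from the values (mostly whole, a minority with fractions, and a different total in each library). They were rounded to whole numbers, and 27 symbols in the tables stand as dates.

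EdgeR 4.0.16 (quasi-likelihood, TMM, filterByExpr with 10 counts and 15 in total) was fitted to all libraries, group by group, and p-values are two-sided and Benjamini-Hochberg adjusted over 12517 genes at 0.05. An SE equals |log2 fold change| over the root of the F statistic. Positions, overlaps and exon lengths come from GENCODE M21 (GRCm38), upstream sequences from RefSeq (GRCm38.p6). Of 135 list entries 132 matched by symbol, 2 by an older symbol and 1 did not match.

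The members and lists were chosen with earlier results of these data known. Named are all members and, per list and comparison, up to 4 passing genes with the largest change. Alternatives were RLE, upper-quartile or no scaling, no or a stricter filter (30 counts and 1 CPM), DESeq2 1.42.0, limma-voom (limma 3.58.1), the older quasi-likelihood method, only the libraries compared, a replicate block, each library left out and, added after seeing the data, Rn45s left out. The fit was tested on simulated data. Software was R 4.3.3 with Python 3.11.15.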

Additional observations from a re-analysis of the deposited data

How the results depend on the processing

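Of the member results repeated under the alternatives, 877 kept their direction and their side of the threshold, 43 missed it where the reported fit passed, 18 passed where it did not, and no called direction reversed. RLE scaling, the older quasi-likelihood method, the stricter filter and leaving out Rn45s changed no member's call. Scaling moved the median of all genes by at most 0.0826 on the log2 scale, in parental cells with upper-quartile scaling.

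The number of members that rose with largazole in parental cells was 2 with upper-quartile scaling, library totals only or only the libraries compared, and 1 to 2 without single libraries, and the number that fell was 4 with upper-quartile scaling and 3 to 7 without single libraries. In KD cells 3 to 6 fell without single libraries. With the knockdown in DMSO the number of members that rose was 2 with no filter or with the replicate block, 5 with only the libraries compared and 1 to 3 without single libraries. Under largazole it was 1 with only the libraries compared and 1 to 5 without single libraries.

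Over all genes, 1392 differed with the knockdown in DMSO, 3248 with only the libraries compared and 418 to 3016 without single libraries. Under largazole 2227 differed, 957 with only the libraries compared and 812 to 4121 without single libraries. The difference between responses had 29 genes, 114 with no filter, 83 in DESeq2, 119 with the replicate block and 2 to 544 without single libraries. The cause of these moves was not tested, except that a left-out library leaves its group with 1, assumed to vary like the others. The log2 difference between replicates spread most in KD largazole, with an SD of 0.359 over genes, against 0.194 to 0.218 in the other groups. All groups shared 1 estimate of the spread.

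The replicate numbers are not stated to mark a shared batch, and the correlation of replicate deviations between groups ran from -0.008 to 0.364, over 0.1 in 4 of 6 pairs of groups; not every pair was, so the samples were not treated as paired. The replicate block changed 1 member call, that of Birc3 in DMSO (adjusted p = 0.0431). Counting error limits Icam1 and Il6, which had single-digit counts in some groups.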
